A study of Rattus norvegicus with 12 samples.

Results

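The effect of tert-butyl alcohol (TBA) on gene expression in the rat renal cortex was averaged over 2 anesthetics. TBA is a solvent and a breakdown product of the fuel additives MTBE and ETBE. All 12 samples of the series enter the comparison, which set the 6 rats titled as TBA-treated against the 6 titled VC (vehicle control, given water). The effect is the mean of the 2 within-anesthetic differences, TBA minus vehicle, with both anesthetics weighted alike.

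The animals were male Sprague-Dawley rats, Crl:CD(SD), purchased at 5 weeks of age. TBA was given at 1000 mg/kg/day for 4 weeks, and rats were killed by bleeding 24 h after the last dose under either a CO2-O2 mixture (4:1) or isoflurane. This gave 4 groups of 3 rats: vehicle under CO2-O2, TBA under CO2-O2, vehicle under isoflurane and TBA under isoflurane. Total RNA from each rat (0.2 ug) was labelled with Cy3 and hybridised to 1 one-colour Agilent array. The clock time of the kill is not given in the sources used here. Values are log2 of the processed spot signal minus the array's own 75th percentile, so 0 is the signal of the 75th percentile probe. A difference of 1 is a doubling. The ± value after a difference is its standard error from limma over 12 arrays.

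The renal cortex consists mostly of proximal tubule, an epithelium that reabsorbs filtered solutes. It draws its energy mainly from fatty acids, lactate and glutamine, and it makes glucose from lactate and glutamine. PPAR-alpha is the nuclear receptor that switches on genes of fatty acid oxidation and ketone body synthesis, and the kidney also runs a circadian clock in which BMAL1 pairs with CLOCK or NPAS2. In male rats the proximal tubule takes up alpha-2u-globulin, a small protein made by the liver, and its build-up under certain chemicals is a known male rat nephropathy. Proximal tubule markers were checked against the tissue label. Slc22a6, the organic anion transporter OAT1, lay between 7.86 and 8.39 on all 12 arrays. All 13 listed S1-S2 markers and all 12 S3 markers passed the filter on dim probes, and 4 of them had a mean below 0, namely Slc36a1 (-3.20), Slc22a13 (-2.71), Slc5a1 (-1.93) and Slc22a7 (-0.61).

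Of 61657 probes that are not controls, 61.6% to 71.0% stood well above background per array. Within a group the arrays' correlations ran from 0.989 to 0.994. The slides are unevenly shared between groups. Slide 1, the only slide scanned on the first day, held the 3 vehicle rats under CO2-O2 and TBA rat 3 under CO2-O2. Slide 2 held TBA rats 1 and 2 under CO2-O2 with the 3 vehicle rats under isoflurane, and slide 3 held the 3 TBA rats under isoflurane. Under isoflurane, slide and treatment cannot be told apart. The within-slide difference that exists is that of TBA rat 3 minus the mean of the 3 vehicle rats on slide 1, and it is given beside the main genes.

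Of 31683 features tested (11689 genes with a symbol and 19994 probes without one), 561 passed an adjusted p of 0.05 for the averaged effect, which is 1.77%. Of these 408 were higher (1.29% of all features) and 153 lower (0.483%) in TBA rats. The changes were mostly small. The median size among the 561 was 0.38, and 33 features changed at least 2-fold. In 443 of the 561 no TBA array overlapped a vehicle array within either anesthetic, a separation seen in 4.25% of all features. Among the called features 207 had a gene symbol, 150 of them higher and 57 lower. The call rate was 1.77% with and without a symbol. Over all features the median difference was 0.01 and 53.5% were higher, so a list of genes is read against those values.

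The number called rested on single arrays. It was 72, 111 and 100 without vehicle CO2-O2 rat 1, 2 or 3, and 94, 119 and 1006 without TBA CO2-O2 rat 1, 2 or 3. Under isoflurane it was 224, 100 and 83 without vehicle rat 1, 2 or 3, and 233, 86 and 400 without TBA rat 1, 2 or 3. In the fit without TBA CO2-O2 rat 3, slide and scan day cannot be told apart from treatment under CO2-O2 either. None of the 561 changed sign in any of those 12 fits, and 57 (43 higher and 14 lower) passed the threshold in all 12. With slide as a random block 330 were called, all of them among the 561. With scan day as a fixed term 145 were called, of which 71 were among the 561. Scan day varies within a group only among the TBA rats under CO2-O2. The CO2-O2 difference in that fit is therefore TBA rat 3 minus the 3 vehicle rats of slide 1. TBA rats 1 and 2 enter only the day term and the spread, and the isoflurane difference is unchanged. The fit is thus not a check separate from the slide 1 difference, and it corrects nothing under isoflurane. On slide 1, TBA rat 3 lay beyond all 3 vehicle arrays in the averaged direction for 519 of the 561 features (92.5%, against 44.3% of all features), although this array is itself part of the averaged effect.

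The 2 arms share no rats. Over all features their TBA effects correlated weakly (r = 0.19, across probes that share arrays), and 55.2% had the same sign. The 100 features with the strongest rise by moderated t under CO2-O2 had a median difference of 0.67 there and 0.29 under isoflurane, where 87 of the 100 were also higher (52.9% of all features were). The 100 chosen as rising under isoflurane had a median of 0.52 there and 0.11 under CO2-O2, with 82 of 100 higher. Falls carried over less evenly. Of the 100 strongest falls under CO2-O2, 81 were also lower under isoflurane, and of the 100 strongest falls under isoflurane, 58 were also lower under CO2-O2 (46.4% of all features were).

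**Figure D1:**
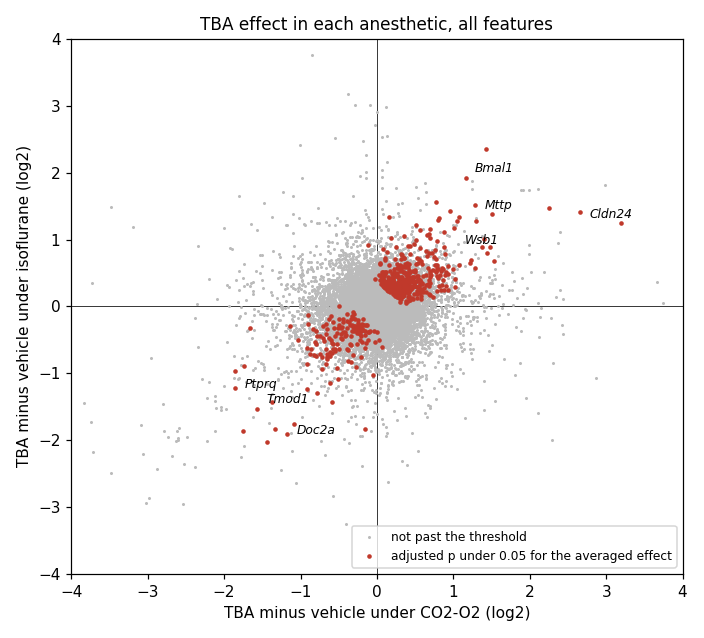
Log2 difference, TBA minus vehicle, under CO2-O2 (x axis) and under isoflurane (y axis), 1 point per feature, with the features past an adjusted p of 0.05 for the averaged effect in red and the others in grey. The red points lie mostly where both differences have the same sign, and 8 features fall outside the axis limits of 4.

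Several genes of fatty acid metabolism rose in TBA rats. Among 28 tested PPAR-alpha targets outside beta-oxidation 4 rose and none fell, 25 were higher, and the median was 0.23. Vnn1, Plin2 and Acot2 were among the 4. Among 19 tested genes listed under peroxisomal beta-oxidation 2 rose, Acaa1b and Acot12, and 17 were higher (median 0.10). All 18 tested genes of mitochondrial fatty acid oxidation were higher, with a median of 0.18 and 1 call, Eci1. The medians of these 3 lists stayed above 0 under quantile normalization (0.19, 0.08 and 0.11).

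Acaa1b, a peroxisomal thiolase that completes a round of beta-oxidation, gave the most stable call of these lists together with Acot12. Under CO2-O2 Acaa1b measured 6.64, 6.87 and 6.70 in vehicle rats and 7.65, 7.34 and 7.17 in TBA rats. With isoflurane its values were 6.63, 6.34 and 6.29 in vehicle rats and 7.61, 7.46 and 7.39 in TBA rats. The groups did not overlap, and the averaged rise was 0.86 ± 0.10 (adjusted p = 0.00619). All 3 of its probes were higher, each with an unadjusted p under 0.05. It passed in all 12 fits without 1 array, and with scan day as a term the rise was 0.75 (adjusted p = 0.0241). Within slide 1 the difference, which is the CO2-O2 part of that 0.75, was 0.43.

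Acot12, the other call of the peroxisomal list, hydrolyses acetyl-CoA in the cytosol. It measured 0.02, 0.03 and 0.10 in vehicle rats and 1.02, 0.90 and 1.03 in TBA rats under CO2-O2, and 0.52, 0.56 and 0.39 in vehicle rats and 0.65, 0.76 and 0.78 in TBA rats under isoflurane. Its averaged rise was 0.59 ± 0.05 (adjusted p = 0.00335), with 0.93 under CO2-O2 and 0.24 under isoflurane. The vehicle rats under isoflurane stood above those under CO2-O2, and the TBA rats below. The test of the difference between the anesthetics had an unadjusted p of 3.55e-05 but an adjusted p of 0.125.

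Calls of 4 further members were less stable. Vnn1, a pantetheinase that releases a coenzyme A precursor, rose by 0.88 ± 0.15 (adjusted p = 0.0305), and Eci1, an isomerase for unsaturated fatty acids, by 0.60 ± 0.12 (adjusted p = 0.0422). Plin2, a coat protein of lipid droplets, rose by 0.47 ± 0.08 (adjusted p = 0.0305) and Acot2, a mitochondrial acyl-CoA thioesterase, by 0.42 ± 0.09 (adjusted p = 0.0464). Vnn1, Plin2 and Eci1 were each read from a single kept probe. With scan day as a term none of the 4 passed (adjusted p = 0.09 for Vnn1, 0.142 for Eci1, 0.0793 for Plin2 and 0.15 for Acot2). Eci1 and Acot2 also missed the threshold with slide as a random block (adjusted p = 0.0544 and 0.059) and under quantile normalization (0.0805 and 0.0736). In these genes vehicle isoflurane rat 1 was the highest of its group and the nearest to the TBA rats. Leaving out that rat, Cyp4a1, a fatty acid omega-hydroxylase, also passed (0.52, adjusted p = 0.0348), while over all rats it measured 0.36 ± 0.16 (adjusted p = 0.255). Ppara itself, the receptor, differed by -0.07 ± 0.24 (adjusted p = 0.896).

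Transport of lactate and its relatives, and the entry of glutamine into glucose and ammonia production, held further calls. Of 20 tested genes of monocarboxylate transport and glycolysis 4 rose and none fell (16 higher, median 0.10). Of 23 tested genes of gluconeogenesis and ammoniagenesis 5 rose and none fell (15 higher, median 0.11, and 0.02 under quantile normalization).

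Slc16a1 encodes MCT1, a proton-coupled carrier of lactate, pyruvate and ketone bodies. It measured 1.91, 2.01 and 2.24 in vehicle rats and 3.06, 2.74 and 2.77 in TBA rats under CO2-O2. The isoflurane arm gave 1.51, 0.66 and 0.46 in vehicle rats and 2.48, 2.26 and 1.78 in TBA rats. The groups did not overlap within either anesthetic, and the averaged rise was 1.05 ± 0.19 (adjusted p = 0.0329; 0.72 within slide 1). It passed in 3 of the 12 fits without 1 array, and missed the threshold with scan day as a term (adjusted p = 0.123) and with the replicate block (adjusted p = 0.051).

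Slc5a12, the sodium-coupled lactate transporter of the early proximal tubule, measured 1.58, 1.64 and 1.70 in vehicle rats and 2.45, 2.43 and 2.45 in TBA rats under CO2-O2. Under isoflurane it measured 1.79, 1.28 and 1.54 in vehicle rats and 1.97, 2.25 and 2.04 in TBA rats. The TBA rats under CO2-O2 were tightly grouped and high. The averaged rise was 0.68 ± 0.08 (adjusted p = 0.0107), seen with both probes and in all 12 fits without 1 array, and it was 0.81 within slide 1. Its relative Slc5a8, a high-affinity carrier of the same substrates, differed by 1.24 ± 0.27 and missed the threshold (adjusted p = 0.0536). Bsg, the chaperone of MCT1 (0.28 ± 0.06, adjusted p = 0.0474), and the glycolytic enzyme Gapdh (0.24 ± 0.05, adjusted p = 0.0449) rose by small amounts.

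Glud1, glutamate dehydrogenase, turns glutamate into oxoglutarate and ammonia. It measured 6.16, 6.34 and 6.28 in vehicle rats and 6.88, 6.80 and 6.75 in TBA rats under CO2-O2, and 6.27, 5.93 and 5.98 in vehicle rats and 6.90, 6.80 and 6.62 in TBA rats under isoflurane. The averaged rise was 0.63 ± 0.07 (adjusted p = 0.0081), with all 3 probes higher, and it passed in all 12 fits without 1 array. Pck1, which makes phosphoenolpyruvate, rose by 0.36 ± 0.06 (adjusted p = 0.0268) and the oxoglutarate dehydrogenase subunit Ogdh by 0.18 ± 0.04 (adjusted p = 0.0452). The last step to free glucose, G6pc1, differed by 0.48 ± 0.11 and missed the threshold (adjusted p = 0.054). The small rises depended on the scaling. Under quantile normalization Pck1 differed by 0.22 (adjusted p = 0.112), Ogdh by 0.13 (adjusted p = 0.143), Gapdh by 0.12 (adjusted p = 0.206) and Bsg by 0.16 (adjusted p = 0.14).

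**Figure D2:**
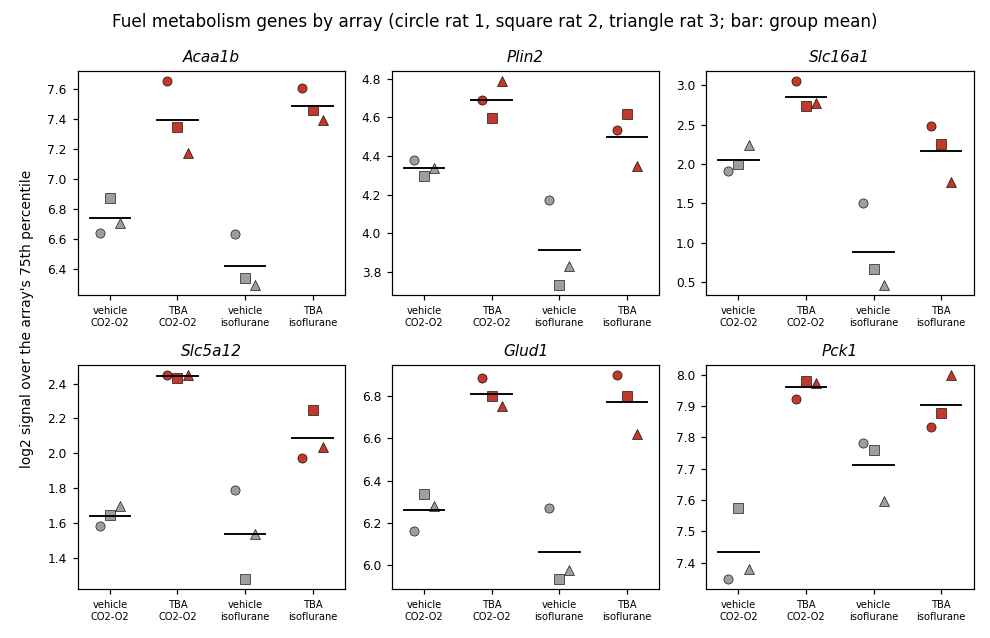
Log2 signal over the array's 75th percentile (y axis) in the 4 groups of 3 rats for 6 genes of fuel metabolism, with 1 symbol per rat and a bar at the group mean. In every panel the TBA rats lie above the vehicle rats of the same anesthetic, and the vehicle rats under isoflurane are spread wider than those under CO2-O2 in Plin2 and Slc16a1.

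Markers of the proximal tubule moved with these genes. Of 13 markers of the S1-S2 segments 3 rose, Slc5a12, the glucose carrier Slc2a2 (0.56 ± 0.09, adjusted p = 0.024) and Slc22a8, an uptake carrier for organic anions (0.38 ± 0.06, adjusted p = 0.0305). Of the 13, 11 were higher and the median was 0.22. Under quantile normalization the median was 0.16, and Slc22a8 differed by 0.25 (adjusted p = 0.0817). The log2 of their summed signal was 9.94 to 10.09 in vehicle and 10.14 to 10.29 in TBA rats under CO2-O2. Under isoflurane it was 9.98 to 10.14 in vehicle and 10.25 to 10.41 in TBA rats. The TBA rats thus lay above the vehicle rats in both arms. In whole tissue more cells of a type and more RNA per cell cannot be told apart, and the part of this shift in the metabolic results was not tested. None of 12 S3 markers was called (median 0.02, and -0.03 under quantile normalization).

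Mitochondrial lists were higher by small amounts that depended on the scaling. Of 16 tested genes of the TCA cycle 14 were higher (median 0.11) and 1 rose, Suclg1 (0.19 ± 0.04, adjusted p = 0.04996). Of 26 genes of oxidative phosphorylation 24 were higher (median 0.10) and 1 rose, Cox4i1 (0.19 ± 0.04, adjusted p = 0.0431). Under quantile normalization the medians were 0.01 and -0.01, Suclg1 differed by 0.07 (adjusted p = 0.377) and Cox4i1 by 0.04 (adjusted p = 0.62). The mitochondrial deacylase Sirt3 rose by 0.30 ± 0.06 (adjusted p = 0.0449). Chosen after their values were seen, Gpx1, glutathione peroxidase, rose by 0.52 ± 0.07 (adjusted p = 0.0196), Mfn1, which fuses mitochondria, by 0.44 ± 0.05 (adjusted p = 0.00894), and the urea cycle enzyme Asl by 0.57 ± 0.06 (adjusted p = 0.00619). Under quantile normalization Gpx1 (0.37, adjusted p = 0.0507) and Sirt3 (0.26, adjusted p = 0.0577) missed the threshold.

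Clock genes changed in both directions. Bmal1 and Npas2, which act as partners of the positive arm of the clock, rose, and Tef, an output transcription factor that the positive arm drives, fell. Of 14 tested clock activators and repressors 2 rose and none fell, and 9 were lower (median -0.21). Of 10 tested output genes 1 fell and 7 were lower (median -0.25).

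The window before the start of Bmal1 is shown because the element there that ROR and REV-ERB receptors recognise is textbook knowledge for this gene. The Acot12 window is shown because it holds a match with 1 mismatch to the direct repeat that PPAR receptors bind. Both sequences are from RefSeq on GRCr8, on the plus strand, upstream of the start, with the matched motif in capitals. The Bmal1 window is chr1:176766268-176766327, bases -60 to -1 from the start, and its capitals mark the ROR element core. The Acot12 window is chr2:24721834-24721893, bases -125 to -66, and its capitals mark that match, which reads on the opposite strand.
Bmal1: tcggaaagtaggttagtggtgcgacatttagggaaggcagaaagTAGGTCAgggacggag
Acot12: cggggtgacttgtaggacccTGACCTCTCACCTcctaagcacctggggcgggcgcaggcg
Promoter windows from 250 bases before to 50 after the start were found for 9536 of the 11689 tested symbols, and both strands were searched. The direct repeat AGGTCANAGGTCA, allowing 2 mismatches, was in 11 of 123 windows of genes that rose (8.94%), in 5 of 46 of genes that fell (10.9%) and in 295 of all 9536 (3.09%). The core TAGGTCA, whose last letters are also 1 arm of that repeat, was in 5 of 123, 0 of 46 and 188 of 9536 (1.97%). The E-box CACGTG was in 14 of 123, 2 of 46 and 864 of 9536 (9.06%), and the D-box TTATGTAA in 0 of 123, 0 of 46 and 53 of 9536. A match describes letters in a window and not a site in use.

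Bmal1 had the highest rise of the named genes after Cldn24 and Cldn22. It measured -0.54, -0.53 and 0.22 in vehicle rats and 1.51, 0.82 and 0.32 in TBA rats under CO2-O2, and -2.68, -3.03 and -2.44 in vehicle rats and -0.68, -0.86 and -0.84 in TBA rats under isoflurane. The TBA rats lay above the vehicle rats within each anesthetic, but the vehicle rats under CO2-O2 lay above the TBA rats under isoflurane. The averaged rise was 1.54 ± 0.21 (adjusted p = 0.0159), with both probes and all 12 fits without 1 array. Within slide 1 it was 0.60. With scan day as a term, where that 0.60 is the CO2-O2 part, it was 1.26 (adjusted p = 0.0566).

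Npas2 followed the same order of arrays (r = 0.97 with Bmal1 over 12 arrays that differ in anesthetic and treatment). It measured -0.90, -1.21 and -0.61 in vehicle rats and 0.14, 0.06 and -0.30 in TBA rats under CO2-O2. The isoflurane arm gave -1.73, -2.34 and -1.63 in vehicle rats and -1.03, -1.0 and -1.0 in TBA rats. The averaged rise was 0.88 ± 0.14 (adjusted p = 0.0281), and 0.53 (adjusted p = 0.04) as the mean of both probes, which were both higher. It missed the threshold with scan day as a term (0.75, adjusted p = 0.117) and with the replicate block (adjusted p = 0.051).

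Tef measured 3.56, 3.58 and 3.38 in vehicle rats and 2.65, 3.04 and 3.19 in TBA rats under CO2-O2, and 3.94, 4.23 and 4.13 in vehicle rats and 3.65, 3.49 and 3.81 in TBA rats under isoflurane. It fell by 0.50 (SE 0.10, adjusted p = 0.0435) and passed in 1 of the 12 fits without 1 array. It missed the threshold with slide as a random block (adjusted p = 0.0551) and with scan day as a term (-0.38, adjusted p = 0.168). TBA CO2-O2 rat 3 was the TBA rat nearest to its vehicle group in Bmal1, Npas2 and Tef. Without that rat the output gene Dbp (-1.06, adjusted p = 0.0414) and the repressor Ciart (-1.82, adjusted p = 0.0252) passed as well. In that fit slide and scan day cannot be told apart from treatment under CO2-O2. With scan day as a term, TBA rat 3 is the only TBA rat behind the CO2-O2 difference. In that fit Dbp differed by -0.53 (adjusted p = 0.362) and Ciart by -0.72 (adjusted p = 0.353). Over all rats Dbp differed by -0.88 ± 0.25 (adjusted p = 0.103), Ciart by -1.46 ± 0.42 (adjusted p = 0.106) and Clock by 0.32 ± 0.08 (adjusted p = 0.062). Vehicle rats of the 2 anesthetics differed in these genes at baseline, and the time of day of the kill, which sets clock gene levels, is not given in the sources used here. Its part in the result was not tested.

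**Figure D3:**
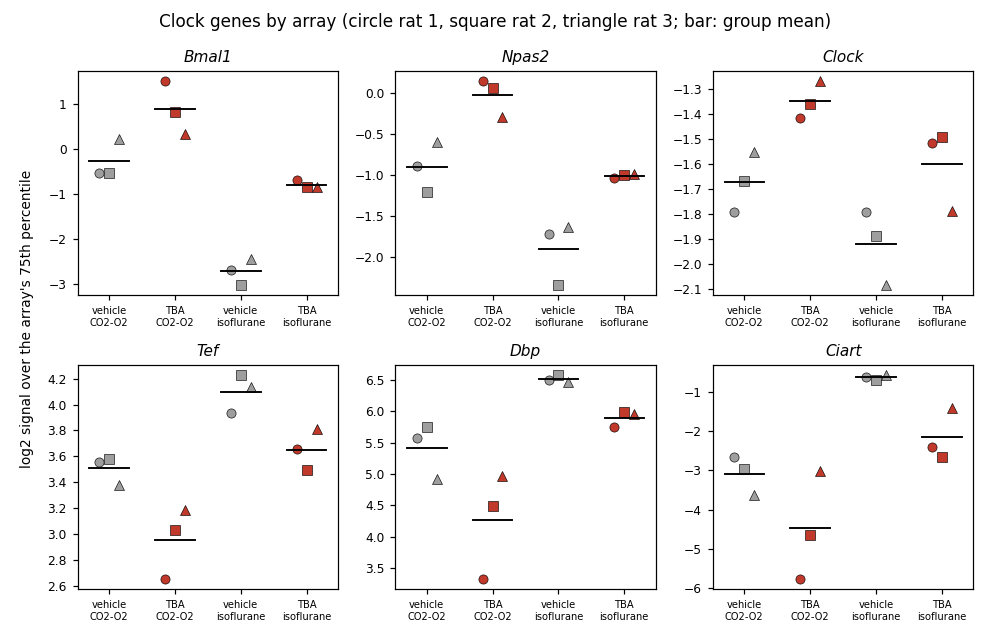
Log2 signal over the array's 75th percentile (y axis) in the 4 groups of 3 rats for 6 clock genes, with 1 symbol per rat and a bar at the group mean. Bmal1, Npas2 and Clock are higher in TBA rats within each anesthetic, Tef is lower, and TBA rat 3 under CO2-O2 (triangle) lies nearest to the vehicle rats in Bmal1, Npas2, Tef, Dbp and Ciart.

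Cldn24 and Cldn22, neighbouring and closely related claudin genes of tight junctions, had the highest rises of all genes with a symbol. Cldn24 measured -4.56, -4.80 and -4.64 in vehicle rats and -1.74, -2.18 and -2.10 in TBA rats under CO2-O2, and -3.19, -3.44 and -4.38 in vehicle rats and -1.93, -2.47 and -2.39 in TBA rats under isoflurane. All TBA arrays lay above all vehicle arrays. The rise was 2.03 ± 0.19 (adjusted p = 0.00448; 2.57 within slide 1), and that of Cldn22 was 1.86 ± 0.17 (adjusted p = 0.00387). Their probes correlated at 0.98 over the 12 arrays, and as closely related copies they are uncertain as 2 results. Both probes of Cldn22 (r = 0.93 and 0.90) and that of Cldn24 (r = 0.92) also followed the brightest probe of Iba57, whose pattern is described below. The part of that pattern in the claudin rises was not tested. With normexp background correction and an offset of 50 the rises were 1.19 and 1.01. Of 20 claudins tested 2 rose and 1 fell, Cldn10, a listed marker of the thick ascending limb (-0.40 ± 0.08, adjusted p = 0.0425). Its groups overlapped under isoflurane (vehicle 2.46, 2.40 and 2.62, TBA 2.49, 2.24 and 2.19). It missed the threshold with slide as a random block (adjusted p = 0.0547), scan day as a term (0.158) and the replicate block (0.061).

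Wsb1, a substrate adaptor of a ubiquitin ligase, had the smallest adjusted p of all genes named here. It measured 3.96, 3.95 and 3.87 in vehicle rats and 4.86, 4.62 and 4.94 in TBA rats under CO2-O2, and 3.33, 3.02 and 3.09 in vehicle rats and 4.16, 4.32 and 4.29 in TBA rats under isoflurane. The groups did not overlap, and both probes were higher. The averaged rise was 0.99 ± 0.07 (adjusted p = 0.00298). It was 1.01 within slide 1, a difference that also enters the 1.06 with scan day as a term (adjusted p = 0.00464).

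Ndrg1, a stress-responsive gene of the hypoxia list, measured 5.93, 6.08 and 6.16 in vehicle rats and 7.15, 6.86 and 6.53 in TBA rats under CO2-O2. Under isoflurane it measured 5.30, 5.36 and 5.52 in vehicle rats and 6.60, 6.25 and 6.26 in TBA rats. The groups did not overlap within either anesthetic. It rose by 0.89 ± 0.11 (adjusted p = 0.0103; 0.48 within slide 1), with both probes higher, and was the 1 called member among 17 tested hypoxia genes (median 0.07). Gabarapl1, an ATG8-family protein of autophagosomes, rose by 0.43 ± 0.05 (adjusted p = 0.00619), so that 2 of 19 autophagy and ubiquitin ligase genes rose (median 0.09).

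The other large rises were of genes with different roles. Mttp, which loads lipid onto lipoproteins, rose by 1.40 ± 0.24 (adjusted p = 0.0305) and Baat, which conjugates bile acids and fatty acids to amino acids, by 0.96 ± 0.17 (adjusted p = 0.0341). Rarres2, the precursor of the adipokine chemerin, rose by 1.09 ± 0.19 (adjusted p = 0.0305) and Apcs, the serum amyloid P component, by 0.86 ± 0.16 (adjusted p = 0.0388). Tp73, a relative of p53, rose by 1.28 ± 0.21 (adjusted p = 0.0293), and none of 14 tested p53 targets was called (median 0.11). The serotonin-gated channel subunit Htr3a rose by 1.21 ± 0.18 (adjusted p = 0.0204), Hhatl by 1.21 ± 0.25 (adjusted p = 0.0463), and the immediate early gene Fos by 0.80 ± 0.14 (adjusted p = 0.0303). Mttp and Hhatl were well above background on 11 of the 12 arrays, and Mttp, Tp73, Hhatl, Rarres2, Baat and Apcs were each read from a single probe. Under normexp the rise was 0.77 for Mttp, 0.78 for Tp73, 0.47 for Hhatl, 0.75 for Htr3a and 0.36 for Fos. Htr3a gave 0.79 as the mean of its 2 probes. Of these 8 genes Fos alone passed with scan day as a term, and the adjusted p of the other 7 ran from 0.0658 (Apcs) to 0.151 (Hhatl). Hhatl also missed the threshold with slide as a random block (adjusted p = 0.059). Of the 12 fits without 1 array Hhatl passed in 1, Baat and Apcs in 2 and Htr3a in 12.

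Of smaller calls in the lists, the efflux pump Abcc2 (0.49 ± 0.10, adjusted p = 0.04996) was the 1 of 20 tested NRF2 targets that rose, and Mt2A, a metallothionein (0.24 ± 0.04, adjusted p = 0.0305), the 1 of 16 glucocorticoid targets (0.10 with an adjusted p of 0.238 under quantile normalization). Creb3l1 rose by 0.43 ± 0.08 (adjusted p = 0.0357), and the salt-inducible kinase Sik1 fell by 0.49 (SE 0.08, adjusted p = 0.0305), mostly under isoflurane (-0.76, against -0.21 under CO2-O2). The difference between the arms of Sik1 had an unadjusted p of 0.00801 and an adjusted p of 0.277, and with scan day as a term its averaged effect had an adjusted p of 0.0883. Notch3 rose by 0.29 ± 0.06 (adjusted p = 0.0388), but 1 of its 2 probes did not share the direction and the mean of both gave 0.12 (adjusted p = 0.255).

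Falls were fewer and several were of dim probes, whose size depended on the background correction. Timm8a2, a small chaperone of mitochondrial protein import, measured -2.90, -2.14 and -2.44 in vehicle rats and -4.03, -3.18 and -4.27 in TBA rats under CO2-O2. With isoflurane its values were -1.90, -1.23 and -1.21 in vehicle rats and -2.58, -3.81 and -3.46 in TBA rats. The groups did not overlap within either anesthetic, and it fell by 1.58 (SE 0.26, adjusted p = 0.0297) with all 3 of its probes lower (-1.02 under normexp). It missed the threshold with scan day as a term (adjusted p = 0.0594).

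Tmod1, which caps actin filaments, measured -2.27, -2.48 and -2.60 in vehicle rats and -3.92, -4.57 and -3.58 in TBA rats under CO2-O2. The isoflurane arm gave -2.32, -1.35 and -2.72 in vehicle rats and -3.42, -3.91 and -3.64 in TBA rats. All TBA rats lay below all vehicle rats. The fall was of 1.55 (difference -1.55 ± 0.24, adjusted p = 0.0237), with both probes lower (-0.89 under normexp). With scan day as a term Tmod1 missed the threshold (adjusted p = 0.0978).

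Ptprq, a receptor-type phosphatase, differed by -1.54 ± 0.31 (adjusted p = 0.044) and Doc2a, a calcium sensor of vesicle release, by -1.54 ± 0.19 (adjusted p = 0.00902). Doc2a was well above background on 9 of the 12 arrays, and under normexp it differed by -0.53. Nmbr, the neuromedin B receptor, differed by -1.01 ± 0.14 (adjusted p = 0.016). It was not well above background on any TBA array under isoflurane, where the vehicle rats were at least 2.61-fold higher. For that bound each TBA array counted with the probe's own value or, where larger, with the lowest signal flagged well above background on it. Fancd2, of DNA crosslink repair, fell by 0.83 (SE 0.13, adjusted p = 0.0271) and was the 1 call among 16 repair genes (-0.32 under normexp, where Nmbr differed by -0.35 and Gdf10 by -0.38). Gdf10, a TGF-beta family ligand, fell by 0.80 (SE 0.15, adjusted p = 0.0357), Neto2, a subunit of kainate receptors, by 0.74 (SE 0.14, adjusted p = 0.0369), and, chosen after its values were seen, the cold-inducible RNA-binding protein Rbm3 by 0.55 (SE 0.12, adjusted p = 0.0485). Spata6 fell by 0.43 (SE 0.04, adjusted p = 0.00539) with both probes and in all 12 fits without 1 array. With scan day as a term Ptprq (adjusted p = 0.167), Fancd2 (0.09), Gdf10 (0.137), Neto2 (0.139) and Rbm3 (0.181) missed the threshold. Doc2a, Nmbr and Spata6 passed with that term (adjusted p = 0.0155, 0.0426 and 0.0155). Ptprq and Rbm3 also missed it with slide as a random block (adjusted p = 0.0551 and 0.0598). Ptprq passed in 2 of the 12 fits without 1 array.

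Igf1, the growth factor, measured 3.04, 2.87 and 2.78 in vehicle rats and 1.94, 1.92 and 2.11 in TBA rats under CO2-O2. Under isoflurane it measured 2.90, 2.47 and 2.48 in vehicle rats and 2.63, 2.41 and 2.43 in TBA rats, and these overlapped. The averaged fall was of 0.52 (difference -0.52 ± 0.09, adjusted p = 0.0305), which rested on the CO2-O2 arm (-0.91, against -0.13), and all 3 probes were lower. The difference between the arms had an unadjusted p of 0.00137 and an adjusted p of 0.232. With scan day as a term the averaged fall missed the threshold (-0.46, adjusted p = 0.123).

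Of genes known from immune cells, Pou2af1 and Cx3cr1 fell, each read from the brighter of 2 probes, and in neither did the other probe share the direction. Pou2af1, a coactivator of B cells, differed by -0.73 ± 0.14 (adjusted p = 0.0383) and Cx3cr1, the fractalkine receptor of myeloid cells, by -0.57 ± 0.11 (adjusted p = 0.0403). With the mean of their probes the values were -0.31 (adjusted p = 0.269) and -0.21 (adjusted p = 0.477). Of 8 tested lymphocyte markers Pou2af1 was the 1 called, and the log2 summed signal of the 8 was 1.35 to 1.73 in vehicle and 1.20 to 1.39 in TBA rats under CO2-O2, and 0.83 to 1.26 and 0.96 to 1.37 under isoflurane. Of 9 tested macrophage markers none was called.

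Some of the strongest calls came from probes that moved as 1 pattern and not with the other probes of their gene. Chosen after values were seen, 8 genes had a brightest probe that correlated with that of Iba57 at 0.958 or higher over the 12 arrays, namely Iba57, Pax3, Tcf15, Cyb5r1, Nus1, Spag7, Hrh4 and Pcdh20. The brightest probe of Nus1, which takes part in dolichol synthesis, rose by 1.12 ± 0.11 (adjusted p = 0.00448), while its 2 other probes differed by -0.02 and 0.08. The brightest probe of Tcf15, a factor of embryonic mesoderm, rose by 0.85 ± 0.08 (adjusted p = 0.00401) and its other probe differed by -0.13.

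Over the 6 of these 8 genes with several probes, 1 of 12 dimmer probes had an unadjusted p under 0.05, and the median difference of the 12 was 0.08. The same held for 5 falling genes that followed Glra2, namely Glra2, Cym, Extl3, Tmem47 and Ptprn2. Their brightest probes differed by -0.70 to -0.61 and their 4 dimmer probes by -0.16 to 0.01, none with an unadjusted p under 0.05. Probe sequences were not analysed here, and whether these probes detect 1 RNA was not tested. Their values are therefore those of probes, and changes of these 13 genes are uncertain. Over all called symbols with several kept probes, 108 of 127 had every probe in 1 direction (85.0%), against 4129 of 6032 symbols in all (68.5%).

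**Figure D4:**
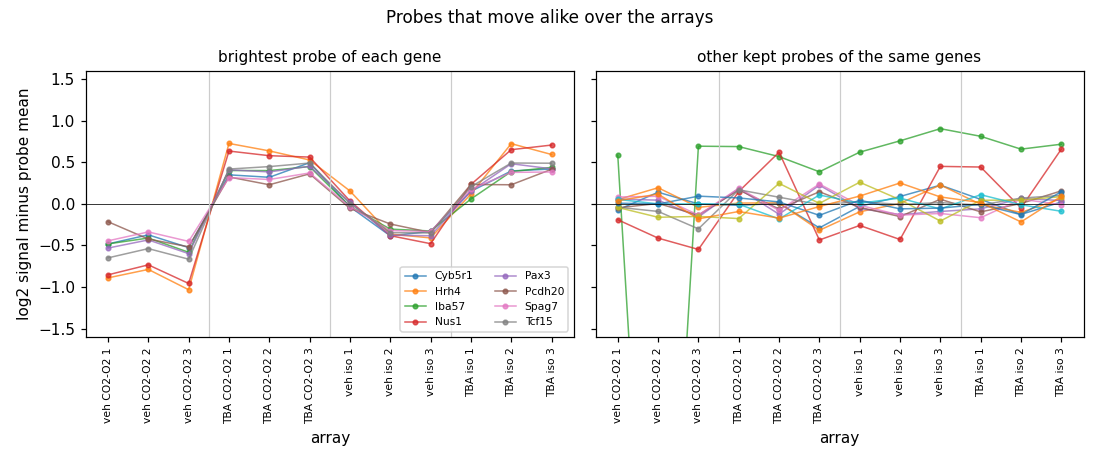
Log2 signal minus the probe's own mean over 12 arrays (y axis) for each array (x axis), for the brightest probes of 8 genes (left) and for the other kept probes of the same genes (right), with 1 line per probe. The brightest probes follow 1 course through all 12 arrays and their other probes do not, and 1 dimmer Cyb5r1 probe leaves the axis at vehicle CO2-O2 rat 2, where its spot measured -7.47.

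Alpha-2u-globulin transcripts were lower in most TBA rats but not past the threshold. Of 9 listed members 3 were tested, near-identical paralogs whose single signals are uncertain: Mup4 (-2.98 ± 0.81, adjusted p = 0.0926), Obp3 (-2.32 ± 0.64, adjusted p = 0.0933) and Mup5 (-2.32 ± 0.65, adjusted p = 0.1). Mup5 measured -0.67, -0.36 and -0.25 in vehicle rats and -3.96, -4.46 and -1.21 in TBA rats under CO2-O2. With isoflurane its values were 0.07, 1.30 and -1.22 in vehicle rats and -0.49, -3.05 and -1.91 in TBA rats. TBA CO2-O2 rats 1 and 2 and TBA isoflurane rat 2 were low, and the isoflurane groups overlapped. Without TBA CO2-O2 rat 3 the 3 transcripts passed (Mup5 -2.82, adjusted p = 0.0345; Mup4 -3.52, adjusted p = 0.0422; Obp3 -2.81, adjusted p = 0.0322). In that fit slide and scan day cannot be told apart from treatment under CO2-O2. With scan day as a term, TBA rat 3 is the only TBA rat behind the CO2-O2 difference. In that fit the differences were -1.32 for Mup5, -1.90 for Mup4 and -1.35 for Obp3. Their adjusted p were 0.35, 0.332 and 0.331.

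The plasma protein transcripts Alb and Ttr of the liver varied with them from rat to rat. Alb, albumin, measured 0.49, 1.18 and 1.34 in vehicle rats and -1.41, -2.34 and 0.63 in TBA rats under CO2-O2, and 1.67, 2.52 and 0.50 in vehicle rats and 1.57, -1.84 and 0.46 in TBA rats under isoflurane. The same 3 TBA rats were low. Alb differed by -1.77 ± 0.66 (adjusted p = 0.19) and Ttr, transthyretin, by -1.81 ± 0.70 (adjusted p = 0.2). Over the 12 arrays, which share both treatments and the scaling, Mup5 correlated with Alb at 0.97, Obp3 at 0.97 and Mup4 at 0.96. Of 10 tested plasma protein genes none was called and 7 were lower (median -0.70). The 10 did not move as 1 group. Serpina1 (-1.19), Apoa2 (-1.09) and Hp (-1.09) were lower by more than 1, Rbp4 and Tf differed by -0.32 and -0.18, and Ambp, Fgb and Ahsg by 0.12, 0.08 and 0.08. The log2 summed signal of the 10 was 4.50 to 4.67 in vehicle and 4.25 to 4.93 in TBA rats under CO2-O2, and 4.34 to 4.86 and 3.24 to 4.49 under isoflurane. The part of liver transcripts in the alpha-2u-globulin values was not tested.

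**Figure D5:**
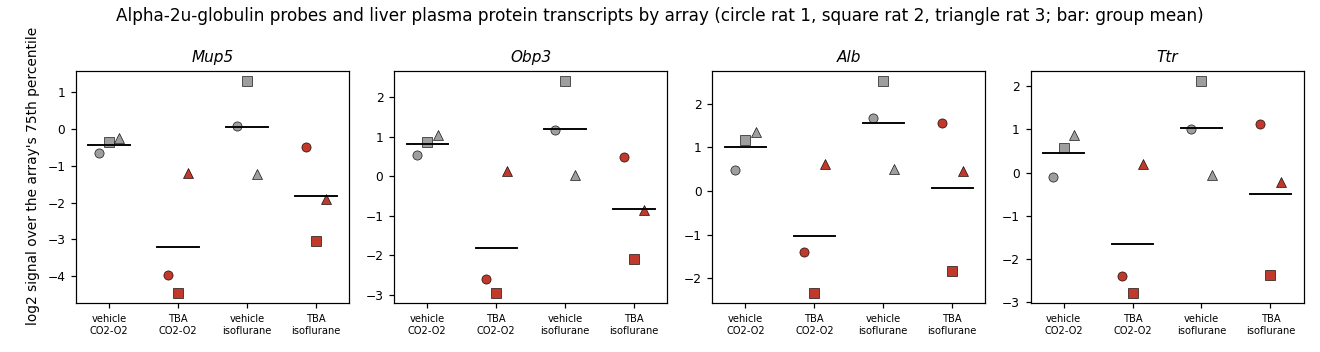
Log2 signal over the array's 75th percentile (y axis) in the 4 groups of 3 rats for 2 alpha-2u-globulin probes (Mup5 and Obp3) and 2 liver plasma proteins (Alb and Ttr), with 1 symbol per rat and a bar at the group mean. TBA CO2-O2 rats 1 and 2 and TBA isoflurane rat 2 are the lowest arrays in all 4 panels.

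Markers of tubular injury did not pass the threshold. Of 18 tested markers none was called, 12 were higher and the median was 0.09. Havcr1 (KIM-1) differed by 0.06 ± 0.37 (adjusted p = 0.948) and Lcn2 (NGAL) by -0.09 ± 0.73 (adjusted p = 0.96). Clu, clusterin, measured 2.94, 2.79 and 3.71 in vehicle rats and 3.70, 4.05 and 3.99 in TBA rats under CO2-O2. The isoflurane arm gave 2.90, 3.53 and 2.78 in vehicle rats and 3.59, 3.36 and 3.20 in TBA rats. The groups overlapped, and the difference was 0.54 ± 0.18 (adjusted p = 0.153). Spp1, osteopontin, differed by 1.00 ± 0.30 (adjusted p = 0.117), with vehicle and TBA rats overlapping under isoflurane. The endocytic receptor Lrp2 differed by 0.05 ± 0.06 (adjusted p = 0.67). Of 18 cell cycle genes none was called (median 0.18). Mki67 and Top2a have no probe named here, and Cyp2b1 and Cyp1a1 were not kept by the filter on dim probes.

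Other lists held no call. These included 10 tested CYP enzymes of drug metabolism (median 0.03), 22 genes of phase II conjugation (0.16), 17 chaperones (0.13), 17 genes of the unfolded protein response (0.01), 23 interferon response genes (0.15), 24 genes of cholesterol and fatty acid synthesis (-0.08, with 18 lower) and 22 proteasome genes (0.01). The CYP, unfolded protein and proteasome medians were below 0 under quantile normalization. Outside the proximal tubule, markers of the distal convoluted tubule, collecting duct, podocytes, endothelium, fibroblasts, red blood cells, adipocytes, skeletal muscle and adrenal cortex gave no call, with medians between -0.22 (adrenal cortex) and 0.24 (skeletal muscle).

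The test of whether the TBA effect differed between the anesthetics called 0 of 31683 features (limma, 0%), with 3883 at an unadjusted p under 0.05 and a smallest adjusted p of 0.0778. Of the 561 called features, 4 had opposite signs in the 2 arms and 131 had an unadjusted interaction p under 0.05. The averaged value of such a feature, Acot12, Igf1 and Slc2a2 among them, lies between 2 unlike arm values.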

How the data were processed

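Each of the 12 rats gave 1 renal cortex RNA sample and 1 one-colour Agilent array. Per the file headers, the deposited intensity of each spot is the processed signal of Agilent Feature Extraction 10.7.1.1 (10.7 per the submitters' processing notes), with flags for signal well above background. The deposited series table held ratio values made by the authors. No source used here states their scaling, and from the values they are linear, the processed signal divided by that array's 75th percentile (column medians 0.101 to 0.107). Each of its columns matched another replicate of its own group, so it served as an alternative.

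From these, log2 of the processed signal minus the array's 75th percentile was computed, without control probes and with outlier spots set missing. Kept were probes flagged well above background in every rat of 1 or more groups. Probes were named through RefSeq (GRCr8), where 27460 of 61657 had a symbol, and the brightest kept probe stood for a gene. Its dimmer probes were not tested, and each kept probe without a symbol was a feature of its own. A model of 4 group means was fitted by limma's lmFit with eBayes (limma 3.58.1, R 4.3.3). The effect was the mean of both TBA differences, and p-values were adjusted by Benjamini-Hochberg over all 31683 features at 0.05. The procedure was tested on simulated data. The number of arrays limits the precision, and the p-values measure the spread between these rats.

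Named were the 20 highest rises and 20 largest falls among called symbols whose arrays did not overlap within either anesthetic, the 10 smallest adjusted p, up to 5 called members of each list, and a preset group of markers. Members and lists were chosen with earlier results of these data known. Genes said to be chosen after their values were seen fall outside that rule, as do G6pc1, Slc5a8, Dbp, Ciart, Clock, Alb, Ttr, Mup4, Obp3 and members of marker lists that are given without a call. Alternatives covered background correction (normexp on median signals, offset 50), scaling, the filter, probe choice, slide as a random block (statmod 1.5.0), scan day, replicate number and leaving out each array. Some genes that the rule selects are not reported here.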

Additional observations from a re-analysis of the deposited data

Results flagged for a closer look

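Lrp2, which encodes megalin, the endocytic receptor of the proximal tubule, moved in opposite directions under the 2 anesthetics. Under CO2-O2 it measured 6.32, 6.51 and 6.31 in vehicle rats and 6.20, 6.21 and 6.27 in TBA rats, a difference of -0.15 ± 0.08. Under isoflurane it measured 6.38, 6.23 and 6.14 in vehicle rats and 6.60, 6.48 and 6.44 in TBA rats, a difference of 0.26 ± 0.08. All TBA rats lay below all vehicle rats in the first arm and above them in the second. The difference between the arms was 0.41, with an unadjusted p of 0.00612 and an adjusted p of 0.271 by limma, so it did not pass the threshold. Of its 2 probes 1 shared the direction of the averaged effect.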

How the results depend on the processing

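The averaged effect gave 561 calls. The count was 1042 with normexp background correction, 1169 with a trended robust spread, 1035 with array weights, 330 with slide as a random block, 285 over features with a symbol alone (11689 tested), 145 with scan day as a term and 58 with no filter on dim probes (49481 tested). Leaving out 1 array gave 72 to 1006. Deviations of same-numbered rats correlated at -0.13 to 0.12, by the numbers of the scanner files. The deposited series table orders the replicates otherwise, so these values cannot settle whether rats were paired. With a replicate block 120 were called, 115 of them among the 561. The interaction, 0 calls by limma, gave 43 with scan day as a term, 7 with normexp, 2 with the filter on all 12 arrays, 2 with the trended spread, and 0 to 5 leaving out 1 array. None of the 561 changed sign with these fits or with quantile or median scaling, and 2 did with the mean of a gene's probes. The share of calls that were higher was 72.7%, against 65.4% with quantile and 79.3% with median scaling. Of 86 named genes past the threshold, 32 passed with scan day as a term and 39 with the replicate block. The causes were not tested. The single spots at the floor and 1 probe per accession were alternatives chosen after seeing the data, with 564 and 558 calls.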

Other observations

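In 29 features 1 array lay at least 5 log2 units below all others, and 26 of these spots were on vehicle arrays, 13 on vehicle isoflurane rat 3 and 9 on vehicle CO2-O2 rat 2. Acot1, a cytosolic acyl-CoA thioesterase, measured -7.19 on vehicle isoflurane rat 3 and 4.84 to 5.39 elsewhere, and its difference was 2.12 (adjusted p = 0.567 by limma) with the spot and 0.09 ± 0.08 (adjusted p = 0.571) without it. The gene was chosen after its values were seen.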
